A study of Mus musculus with 14 samples.

Results

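The 8 liver genes described here bring glucose and fructose into glycolysis: the sugar transporter genes Slc2a2 and Slc2a5, the gene Gckr of a regulator of glucose phosphorylation, the glycolytic genes Pfkl, Pfkfb1 and Pklr, the fructokinase gene Khk and the sorbitol dehydrogenase gene Sord. They were chosen by symbol for their place in the pathway, and all 8 were found among the 37681 genes of the count table, each under 1 Ensembl identifier. Livers were compared from 7 mice on a diet rich in both fat and sucrose (HFHS) and 7 mice on a diet low in both (LFLS), with 1 polyadenylated RNA library per liver. The libraries held 18.2 to 52.8 M counts (M, mega). The labels used here do not give the strain, sex or age of the mice, nor how long they were fed, when the liver was taken or whether they had fasted. Each sample title begins with a number of unstated meaning, which was 1 in 4 libraries of each diet (HFHS 1 to 4 and LFLS 1 to 4) and 2 in 3 libraries of each diet (HFHS 5 to 7 and LFLS 5 to 7). It was treated as a possible batch, but it was not a covariate in the main test. For each of the 8 genes the log2 fold change within each number is given beside the pooled one.

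Hepatocytes take up glucose through GLUT2, the product of Slc2a2, a low-affinity carrier that lets hepatic glucose follow blood glucose. Its phosphorylation is restrained by the regulatory protein that Gckr encodes, an inhibition that fructose 1-phosphate relieves. Fructose, a component of sucrose, is phosphorylated by the ketohexokinase encoded by Khk and enters below the phosphofructokinase step. The transcription factor ChREBP (Mlxipl) responds to sugar in hepatocytes, and the liver pyruvate kinase gene Pklr is its textbook target.

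None of the 8 genes passed the diet comparison, edgeR's quasi-likelihood test adjusted by Benjamini-Hochberg over all 17223 tested genes. At an adjusted p under 0.05 the test called 2.81% of all genes, 1.37% higher and 1.44% lower on HFHS. At an unadjusted p under 0.05 stood 1 of the 8 genes, Slc2a2, against 19.6% of all tested genes. DESeq2's Wald test called 1 of the 8 genes, Slc2a2, and 7.3% of all genes, and limma voom with quality weights called 2, Slc2a2 and Sord, and 19% of all genes. In 6 of the 8 genes the log2 fold change was positive, with a median of 0.18 against -0.01 over all tested genes. In none of the 8 genes were the diets without overlap, against 1.65% of all tested genes. The 95% intervals allowed differences of up to 1.70-fold higher on HFHS (Slc2a2) or 1.73-fold (Pklr), and down to 0.60-fold (Slc2a5). All 8 passed the filter on low counts, with 145 (Slc2a5) to 43581 (Sord) counts in a library. In bulk liver RNA a lower share of hepatocytes and less RNA per hepatocyte cannot be told apart.

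The tissue label and the libraries were set against marker genes. The 8 hepatocyte markers, with albumin the highest, summed to 56406 to 99065 CPM (counts per M counts of the library, scaled by edgeR's TMM factors) on HFHS and 68904 to 114764 CPM on LFLS, and none of them was called. Albumin made up most of this sum, with means of 70663 CPM on HFHS and 73550 CPM on LFLS. Only Ttr had a higher mean on HFHS (3811 against 3673 CPM on LFLS). The others were lower on HFHS, among them Tat (1015 against 1918 CPM), Cps1 (2413 against 4340) and Apoa1 (3852 against 5609). LFLS 1 stood apart, with 1.39% of its counts from mitochondrially encoded genes, the lowest share, and the strongest dependence on GC content, so values without it are given for each gene. LFLS 2 held the most RNA of exocrine pancreas, whose 10 markers summed to 15.8 to 377 CPM on HFHS and 18.5 to 1445 CPM on LFLS. Without LFLS 2 the signs of all 8 log2 fold changes were as with it, Slc2a2 stood at 0.40 with an adjusted p of 0.172 by edgeR's quasi-likelihood test, and Pklr stood at 0.28.

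The sequence before the start of transcription is shown for 3 of the genes. Pklr and Khk were the pair whose levels followed each other most closely among the 8 genes, and Slc2a2 had the smallest p. RefSeq promoter windows (GRCm38.p6) matched all 8 genes, and the 250 bases before the annotated start were searched on both strands for the E-box CACGTG and for the pattern CANGNG and CNCNTG, set 5 bases apart, of a carbohydrate response element (ChoRE), the kind of site that ChREBP binds. Capitals mark the matches in these windows, which are written 5′ to 3′ on the strand of the gene.
Pklr, downstream start, chr3:89136373-89136622, plus strand: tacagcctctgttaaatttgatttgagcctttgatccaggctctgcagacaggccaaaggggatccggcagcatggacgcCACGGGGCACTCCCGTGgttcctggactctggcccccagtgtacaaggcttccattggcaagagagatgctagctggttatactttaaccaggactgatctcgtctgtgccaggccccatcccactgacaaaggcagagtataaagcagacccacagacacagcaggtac
Khk, chr5:30921309-30921558, plus strand: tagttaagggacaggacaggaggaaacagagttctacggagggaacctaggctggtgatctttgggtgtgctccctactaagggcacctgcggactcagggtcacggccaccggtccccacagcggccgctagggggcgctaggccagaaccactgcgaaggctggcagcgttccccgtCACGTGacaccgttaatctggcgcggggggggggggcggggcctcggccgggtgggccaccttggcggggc
Slc2a2, chr3:28697653-28697902, plus strand: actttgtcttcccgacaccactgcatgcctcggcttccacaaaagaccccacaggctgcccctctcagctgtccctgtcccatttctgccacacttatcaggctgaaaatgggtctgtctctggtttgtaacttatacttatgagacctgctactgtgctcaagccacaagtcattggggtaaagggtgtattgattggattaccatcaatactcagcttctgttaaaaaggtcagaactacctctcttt
The Pklr window held the ChoRE pattern at bases -170 to -154 from its downstream start, as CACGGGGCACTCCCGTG. The pattern was present in 0.454% of the 32851 promoter windows of the genome. The Khk window held 1 E-box at bases -71 to -66, and 6.02% of all windows held one. These matches do not overlap one another, and neither pattern was present in the Slc2a2 window or in the windows of the other 5 genes. The upstream Pklr start, which is known to serve red cells, held neither pattern. Gene counts do not separate the 2 Pklr starts, and the study measured no binding.

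Slc2a2 (ENSMUSG00000027690, chromosome 3, 28697903 to 28731359 in GRCm38) had the smallest p of the 8 genes and did not pass the test. Its level was 306 to 406 CPM with a median of 378 on HFHS, against 201 to 391 with a median of 243 on LFLS. All 7 HFHS libraries lay above the LFLS median, but LFLS 6 at 391 CPM was higher than 6 of the 7 HFHS libraries. The means were 368 ± 32.8 CPM on HFHS and 268 ± 70.8 CPM on LFLS (SD, n = 7 each), a log2 fold change of 0.46 ± 0.14 (SE), with an adjusted p of 0.0928 by edgeR's quasi-likelihood test. Within title numbers 1 and 2 the log2 fold changes were 0.52 and 0.42. The call depended on the tool and on single libraries. DESeq2's Wald test gave 0.46 with an adjusted p of 0.0335, where 7.3% of genes were called, and limma voom with sample quality weights gave 0.65 with 0.00231, where 19% were called. Without LFLS 6 edgeR's quasi-likelihood test gave 0.58 with an adjusted p of 0.0186, and without LFLS 1 it gave 0.53 with 0.0483. Without any other 1 library it made no call, with adjusted p from 0.0964 (without HFHS 3) to 0.184 (without HFHS 6). With the title number as a block edgeR's quasi-likelihood test gave 0.46 with 0.0494, where 8.94% of genes were called.

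The Slc2a2 difference was smaller once GC content and exon length were entered together, and their separate parts were not tested. A library's correlation between its deviations and gene GC content was -0.21 to 0.05 in HFHS 1 to 4 and 0.21 to 0.60 in LFLS 1 to 4, and -0.42 to -0.11 in HFHS 5 to 7 and -0.37 to -0.25 in LFLS 5 to 7. The transcripts of Slc2a2 had a GC content of 43.4%, the lowest of the 8 genes. Its annotated exons together held 5755 bases, the most of the 8 genes after Pfkl with 6675. With offsets for GC content and this exon length the log2 fold change was 0.24 ± 0.18 (SE), with an adjusted p of 0.461 by edgeR's quasi-likelihood test. The gene 1700112D23Rik overlaps the span of Slc2a2 on the opposite strand, with no shared exon in GENCODE vM21, and carried 176323 counts over all libraries, against 141154 for Slc2a2. It had 468 ± 46.9 CPM on HFHS and 332 ± 94.3 CPM on LFLS (SD, n = 7 each) and an adjusted p of 0.0873 by edgeR's quasi-likelihood test. The labels do not say that the library kit kept strand, so the division of reads between these genes is uncertain.

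Slc2a5 (ENSMUSG00000028976, chromosome 4, 150119283 to 150144169 in GRCm38), which encodes the fructose carrier GLUT5 of the intestine, was the least abundant of the 8 genes. It stood at 7.93 to 17.5 CPM with a median of 10.6 on HFHS, against 7.87 to 22.8 CPM with a median of 10.5 on LFLS. The ranges lay over each other, and LFLS 1 was the highest of all libraries. The log2 fold change was -0.24 ± 0.23 (SE), with an adjusted p of 0.598 by edgeR's quasi-likelihood test, and without LFLS 1 it was -0.03. Within title numbers 1 and 2 it was -0.34 and 0.0029. Of 7 intestinal markers Sis, Alpi and Mep1a had at most 3 counts in any library, while Apoa4 and Fabp2, which liver also expresses, had means of 1599 and 128 CPM on HFHS and 1270 and 92.6 CPM on LFLS. The summed level of the 7 markers was 720 to 3778 CPM on HFHS and 748 to 2121 CPM on LFLS. The 6 islet markers, among them both insulin genes, summed to 0.122 to 0.820 CPM on HFHS and 0.107 to 1.60 CPM on LFLS. No deposited count was below 1, and the lower ends of both ranges stood at this floor.

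Gckr (ENSMUSG00000059434, chromosome 5, 31297443 to 31327314 in GRCm38) had the narrowest interval of the 8 genes. It was at 185 to 229 CPM with a median of 209 on HFHS, against 166 to 237 CPM with a median of 177 on LFLS. All 7 HFHS libraries lay above the LFLS median, yet LFLS 3 was the highest library of all. The log2 fold change was 0.12 ± 0.09 (SE), with an adjusted p of 0.495 by edgeR's quasi-likelihood test and a 95% interval of 0.95-fold to 1.25-fold. It was 0.05 within title number 1, 0.26 within title number 2 and 0.15 without LFLS 1.

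**Figure D1:**
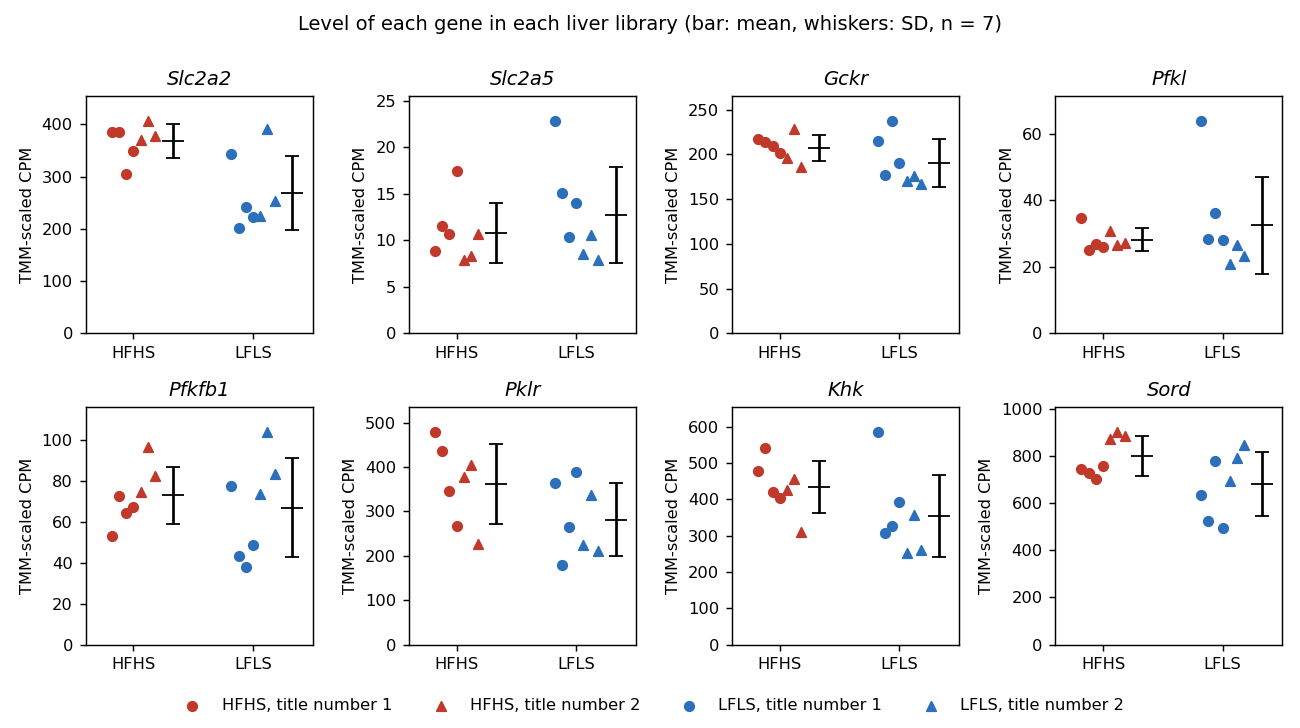
TMM-scaled CPM of the 8 genes in each of 14 liver libraries, with 1 point per library, circles for title number 1, triangles for title number 2, and the mean with SD (n = 7) beside each diet. The diets overlap in all 8 genes. LFLS 1 is the highest library for Slc2a5, Pfkl and Khk, and LFLS 6 at 391 CPM lies among the HFHS libraries for Slc2a2.

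The phosphofructokinase step showed no common direction. Pfkl (ENSMUSG00000020277, chromosome 10, 77986947 to 78010083 in GRCm38), the liver subunit of phosphofructokinase, had 25.0 to 34.6 CPM with a median of 26.7 on HFHS, against 20.8 to 63.8 CPM with a median of 28.0 on LFLS. The HFHS libraries lay close together, and LFLS 1 alone stood at 63.8 CPM. The log2 fold change was -0.20 ± 0.20 (SE), with an adjusted p of 0.611 by edgeR's quasi-likelihood test. Its sign depended on LFLS 1, without which it was 0.049, and on the offsets for GC content and length, with which it was 0.0039. Within title number 1 Pfkl averaged 28.1 ± 4.41 CPM on HFHS and 39.0 ± 16.9 CPM on LFLS (SD, n = 4 each). Within title number 2 it averaged 28.2 ± 2.33 CPM on HFHS and 23.5 ± 2.90 CPM on LFLS (SD, n = 3 each). The log2 fold changes were -0.45 and 0.26, and the diet by title number term was 0.73 with an adjusted p of 0.217 by edgeR's quasi-likelihood test, where 0.883% of genes were called. The GC content of Pfkl transcripts was 57.2%.

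Pfkfb1 (ENSMUSG00000025271, chromosome X, 150588229 to 150643878 in GRCm38) encodes the liver form of the enzyme that makes and breaks down fructose 2,6-bisphosphate, the allosteric activator of phosphofructokinase. It had 53.0 to 96.7 CPM with a median of 72.7 on HFHS, against 37.8 to 104 CPM with a median of 73.5 on LFLS. The HFHS range lay inside the LFLS range. The log2 fold change was 0.13 ± 0.21 (SE), with an adjusted p of 0.770 by edgeR's quasi-likelihood test, and it was 0.33 within title number 1, -0.031 within title number 2 and 0.17 without LFLS 1. Exons of Apex2, on the opposite strand, overlap those of Pfkfb1 in GENCODE vM21, so counts of Pfkfb1 may hold reads of its neighbour. Apex2 carried 47582 counts over all libraries, against 30203 for Pfkfb1, with a log2 fold change of -0.06 ± 0.10 (SE). Once the mean of each diet was removed, it correlated with Pfkfb1 at -0.34 over the 14 libraries. The sharing of reads was not tested.

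Pklr (ENSMUSG00000041237, chromosome 3, 89136142 to 89146784 in GRCm38), which encodes the pyruvate kinase of the last glycolytic step in liver, was the most variable of the 8 genes among HFHS livers after Slc2a5, with a coefficient of variation of 24.9%. It ran from 227 to 479 CPM with a median of 378 on HFHS, against 180 to 389 CPM with a median of 266 on LFLS. HFHS 1, HFHS 2 and HFHS 6 lay above every LFLS library, while HFHS 7 was below the LFLS median. The means were 362 ± 90.2 CPM on HFHS and 282 ± 82.3 CPM on LFLS (SD, n = 7 each), a log2 fold change of 0.36 ± 0.20 (SE), with an adjusted p of 0.327 by edgeR's quasi-likelihood test. It was 0.36 within title number 1, 0.40 within title number 2, 0.44 without LFLS 1 and 0.46 with GC and length offsets. An exon of Hcn3, on the opposite strand, overlaps Pklr, with 38363 counts in all against 147125 for Pklr. Hcn3 had 98.5 ± 24.1 CPM on HFHS and 70.7 ± 22.4 CPM on LFLS (SD, n = 7 each), a log2 fold change of 0.48 ± 0.21 (SE), with an adjusted p of 0.210 by edgeR's quasi-likelihood test. It correlated with Pklr at 0.85 over the 14 libraries, and the division of reads between them is uncertain.

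Khk (ENSMUSG00000029162, chromosome 5, 30921431 to 30931248 in GRCm38), the fructokinase gene, ran from 310 to 540 CPM with a median of 426 on HFHS, against 251 to 584 CPM with a median of 326 on LFLS. In 6 of 7 HFHS libraries it was above the LFLS median, but the highest library was LFLS 1. The means were 434 ± 70.8 CPM on HFHS and 354 ± 113 CPM on LFLS (SD, n = 7 each), a log2 fold change of 0.29 ± 0.18 (SE), with an adjusted p of 0.371 by edgeR's quasi-likelihood test. It was 0.21 within title number 1, 0.47 within title number 2 and 0.46 without LFLS 1. Khk transcripts had the highest GC content of the 8 genes, 58.5%, and with GC and length offsets the log2 fold change was 0.44 ± 0.12 (SE), with an adjusted p of 0.0530 by edgeR's quasi-likelihood test, where 4.22% of genes were called. With the title number as a block besides the offsets the adjusted p was 0.0422 by edgeR's quasi-likelihood test, where 7.49% of genes were called. The gene counts do not separate the 2 known splice forms of the enzyme.

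Sord (ENSMUSG00000027227, chromosome 2, 122234749 to 122265340 in GRCm38), which encodes the enzyme that oxidises sorbitol to fructose, was the most abundant of the 8 genes. It stood at 701 to 900 CPM with a median of 757 on HFHS, against 494 to 847 CPM with a median of 692 on LFLS. All 7 HFHS libraries lay above the LFLS median, and HFHS 5, HFHS 6 and HFHS 7 lay above every LFLS library. The means were 798 ± 84.1 CPM on HFHS and 680 ± 136 CPM on LFLS (SD, n = 7 each), a log2 fold change of 0.23 ± 0.13 (SE), with an adjusted p of 0.343 by edgeR's quasi-likelihood test. It was 0.29 within title number 1, 0.20 within title number 2, 0.21 without LFLS 1 and 0.23 with GC and length offsets. Limma voom with quality weights called it higher, at 0.43 with an adjusted p of 0.0247, where 19% of genes were called.

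**Figure D2:**
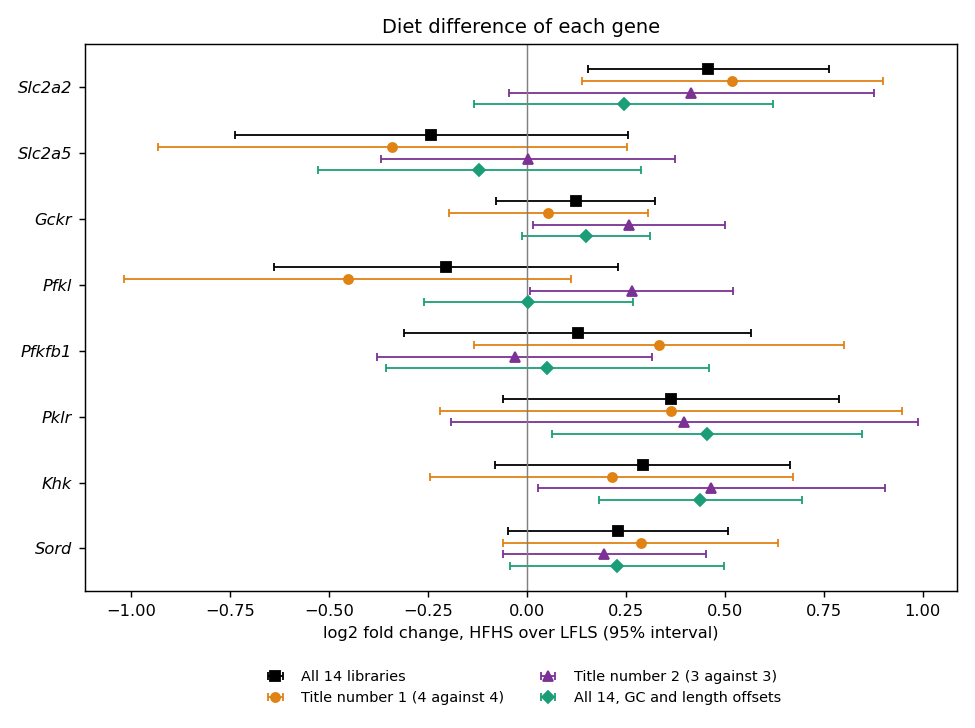
Log2 fold change of each gene, HFHS over LFLS, with its 95% interval from edgeR, for all 14 libraries, for each title number alone and with GC content and length offsets. Slc2a2 lies at 0.24 and Khk lies at 0.44 with the offsets, while Pfkl is at -0.45 in title number 1 and 0.26 in title number 2.

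Per kilobase of transcript, with lengths of principal transcripts in GENCODE vM21, the order of levels on HFHS was Sord (339 ± 35.8 CPM per kilobase), Khk (274 ± 44.7), Pklr (125 ± 31.1), Gckr (103 ± 7.14), Slc2a2 (66.2 ± 5.88), Pfkfb1 (42.0 ± 8.02), Pfkl (7.54 ± 0.910) and Slc2a5 (3.41 ± 1.03), each as mean and SD of 7 libraries. On LFLS the order was the same, from 289 ± 57.9 CPM per kilobase for Sord to 4.04 ± 1.64 for Slc2a5. Sord lay above Khk in 11 of 14 libraries, Pklr above Gckr in 8 of 14 and Slc2a2 above Pfkfb1 in 12 of 14, and these neighbours overlapped on both diets. Khk lay above Pklr in all 14 libraries, as did Gckr above Slc2a2, Pfkfb1 above Pfkl and Pfkl above Slc2a5. With the length of all annotated exons in place of the principal transcript, Gckr lay above Slc2a2 in 4 of 14 libraries, so the place of Gckr depends on the length used.

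The spread between livers was larger on LFLS across the tested genes as a whole. The coefficient of variation was larger on LFLS than on HFHS in 78.1% of all tested genes and in 8 of these 8 genes. Without LFLS 1 it was larger in 70.03% of all tested genes and in 7 of these 8. Within title number 1 it was larger on LFLS in 8 of 8 genes, against 66.1% of all, and within title number 2 in 5 of 8, against 54.0% of all. Pfkl varied by 12.1% on HFHS and 45.2% on LFLS, but by 19.3% on LFLS without LFLS 1, and Khk by 16.3% on HFHS and 32.0% on LFLS, but by 17.4% without LFLS 1. Slc2a5 varied by 30.1% on HFHS and 40.6% on LFLS, but by 26.2% without LFLS 1. Slc2a2 varied by 8.89% on HFHS and 26.4% on LFLS, and by 26.9% without LFLS 1. Mitochondrially encoded transcripts took 4.24 to 5.10% of counts on HFHS, 1.39 to 3.77% in LFLS 1 to 4 and 4.32 to 4.91% in LFLS 5 to 7. The part of this difference between libraries in the spread was not tested.

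Some of the spread went with the title number. In a comparison added after the data were seen, with diet as a covariate, 3 of the 8 genes differed between title numbers 2 and 1 by edgeR's quasi-likelihood test, where 28.8% of all genes did. Pfkfb1 was higher in number 2, with a log2 difference of 0.57 ± 0.15 (SE) and an adjusted p of 0.0142 by edgeR's quasi-likelihood test, and Sord was higher by 0.31 ± 0.10 (0.0346). Slc2a5 was lower in number 2, at -0.61 ± 0.19 (0.0259). With GC and length offsets the differences were 0.45 for Pfkfb1 (adjusted p 0.0715), 0.33 for Sord (0.0348) and -0.41 for Slc2a5 (0.118) by edgeR's quasi-likelihood test, where 13.1% of genes were called. In no gene of the 8 did the diet by title number term pass edgeR's quasi-likelihood test, with adjusted p values from 0.217 to 0.960, while at an unadjusted p under 0.05 stood Pfkl alone (0.0483).

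**Figure D3:**
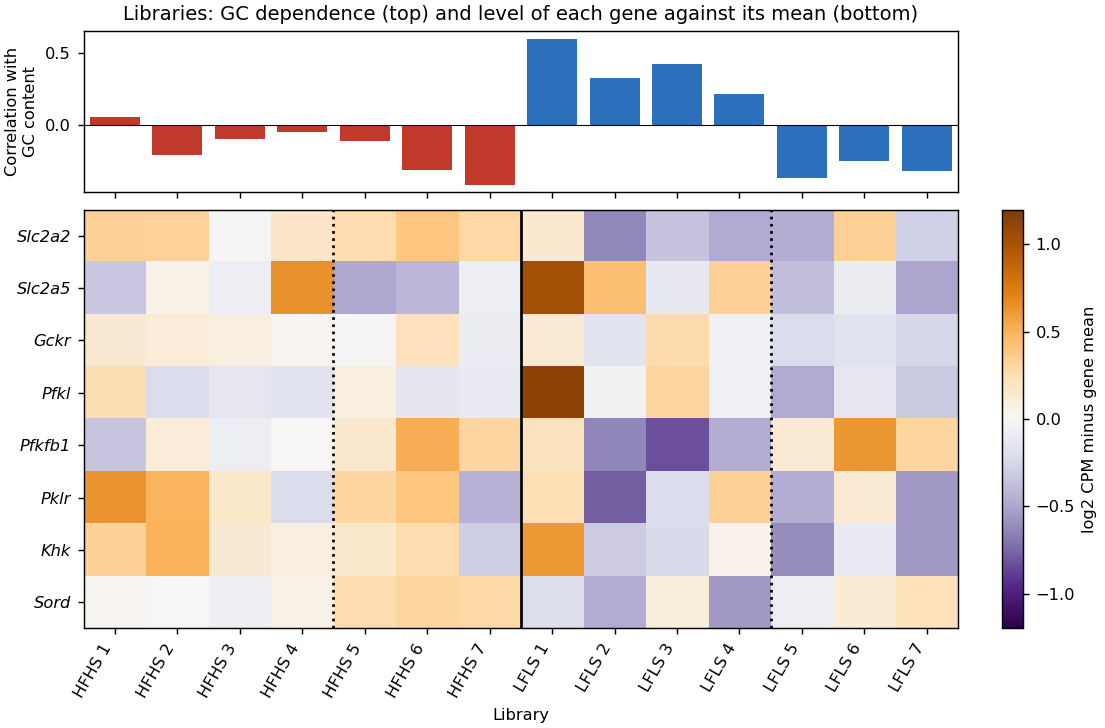
Top, correlation across genes between each library's log2 CPM deviations and transcript GC content; bottom, log2 CPM of each gene minus its mean over 14 libraries. Dotted lines part title numbers 1 and 2 within a diet. The GC correlation is 0.21 to 0.60 in LFLS 1 to 4 and 0.05 or lower in every other library, and the highest cells are those of Pfkl and Slc2a5 in LFLS 1.

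Correlations among the genes themselves were taken once the mean of each diet was removed. Over the 14 libraries Khk correlated with Pklr at 0.80, with Pfkl at 0.74, with Gckr at 0.63 and with Slc2a5 at 0.57 (Pearson's r on log2 CPM), and Pfkfb1 correlated with Slc2a2 at 0.67 and with Sord at 0.55. Slc2a2 also correlated with Sord at 0.48, with Pklr at 0.48, with Khk at 0.47 and with Pfkl at 0.40. Slc2a5 and Sord ran opposite, at -0.58, and Slc2a5 and Pklr stood at 0.06. These values describe the 14 libraries, which share title numbers and GC dependence. LFLS 1 was the highest library for Khk (584 CPM), Pfkl (63.8 CPM) and Slc2a5 (22.8 CPM). No correlation given here was also taken without LFLS 1, so its part in these values was not tested. Over all tested genes, the closest to Khk was Fasn, which encodes fatty acid synthase (0.96), before Ube2v1 (0.94) and the glutathione transferase gene Gstm4 (0.94). Closest to Pklr were Pygl, the liver glycogen phosphorylase gene (0.91), Spry2 (0.90) and the pentose phosphate gene Pgd (0.87). Slc2a2 was closest to its antisense neighbour 1700112D23Rik (0.96), then to the pyruvate dehydrogenase kinase gene Pdk1 (0.94) and the glycogen gene Epm2a (0.93). Sord was closest to Dsg1c (0.96), 5033411D12Rik (0.94) and the carboxylesterase gene Ces1g (0.93), and Gckr to Lcmt2 (0.90), Gm12168 (0.90) and Gm11967 (0.89). Pfkl was closest to the mitochondrial protease gene Lonp1 (0.99), Gm16172 (0.98) and AL593857.1 (0.98), Slc2a5 to Tert (0.94), Prss53 (0.93) and Prkcz (0.92), and Pfkfb1 to 9530036O11Rik (0.97), 1810063B05Rik (0.97) and Las1l (0.96).

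In 6 lists of neighbouring pathways 1 gene rose and 1 gene fell on HFHS, or 2.22% of 90 tested genes, against 2.81% of all tested genes. Slc16a7, which encodes the monocarboxylate transporter MCT2, rose to 94.8 ± 30.2 CPM on HFHS, against 43.4 ± 21.3 CPM on LFLS (SD, n = 7 each), a log2 fold change of 1.13 ± 0.28 (SE), with an adjusted p of 0.0451 by edgeR's quasi-likelihood test. It was 1.43 within title number 1 and 0.92 within title number 2. G6pdx, the glucose 6-phosphate dehydrogenase gene of the pentose phosphate pathway, fell to 8.48 ± 1.34 CPM on HFHS, against 13.3 ± 3.38 CPM on LFLS (SD, n = 7 each), a log2 fold change of -0.64 ± 0.15 (SE), with an adjusted p of 0.0370 by edgeR's quasi-likelihood test. It was -0.69 within title number 1 and -0.54 within title number 2. Slc16a7 kept its call only without HFHS 3, HFHS 4 or LFLS 6, and G6pdx only without HFHS 6 or LFLS 1, 2, 3, 6 or 7. Without any other 1 library adjusted p ran from 0.0581 to 0.109 for Slc16a7 and from 0.0546 to 0.0890 for G6pdx by edgeR's quasi-likelihood test.

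Of 25 other glycolysis enzymes 0 were called, with a median log2 fold change of -0.10 against -0.01 over all tested genes. The smallest p were those of Hk2, the hexokinase of muscle and fat (log2 fold change 1.41 ± 0.41, SE), and of the lactate dehydrogenase gene Ldha (-0.40 ± 0.16). Their adjusted p values were 0.0743 and 0.179 by edgeR's quasi-likelihood test. With the title number as a block Hk2 was called higher (adjusted p 0.0392, edgeR's quasi-likelihood test), where 8.94% of all genes were called. With GC and length offsets Hk2 was called too (adjusted p 0.0406, same test), where 4.22% were called. It had 5.08 ± 4.12 CPM on HFHS and 1.92 ± 0.581 CPM on LFLS (SD, n = 7 each). Of 12 genes of fructose, sorbitol and glycerol phosphate handling 0 were called, with a median of 0.05. The fatty aldehyde dehydrogenase gene Aldh3a2 differed by 0.58 ± 0.17, the glycerate kinase gene Glyctk by -0.33 ± 0.12 and Akr1b10 by 0.21 ± 0.16, with adjusted p values of 0.0824, 0.137 and 0.490 by edgeR's quasi-likelihood test. Of 12 other sugar transporters 0 were called, with a median of 0.03. Slc2a3 differed by 0.41 ± 0.12, Slc2a1 by -0.39 ± 0.14 and Slc5a10 by -0.54 ± 0.23, with adjusted p values of 0.0838, 0.149 and 0.204 by edgeR's quasi-likelihood test. With the title number as a block Slc2a3 was called higher (adjusted p 0.0460, edgeR's quasi-likelihood test), and also with GC and length offsets (0.0494, same test).

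Of 17 transcription factors and targets of the carbohydrate response 0 were called, with a median of -0.22. Hnf4a, a master regulator of hepatocyte genes, stood closest to the threshold at -0.51 ± 0.13 (adjusted p 0.0518), before Foxa2 (-0.53 ± 0.17, 0.103) and the clock gene Arntl (-1.14 ± 0.42, 0.150), all by edgeR's quasi-likelihood test. With the title number as a block Hnf4a and Arntl were called lower (adjusted p 0.0204 and 0.0105, edgeR's quasi-likelihood test). The block called 8.94% of all genes. With GC and length offsets neither gene was called (adjusted p 0.142 and 0.132, same test). Of 16 genes for the fate of pyruvate and lactate 13 had a positive log2 fold change, against 8389 of all 17223 tested genes. Their median was 0.25, and only Slc16a7 was called. With GC and length offsets Pdhx (-0.07), Pdk3 (-0.05) and Pdp1 (-0.04) turned negative and Pdk2 (0.13) turned positive. Mpc1, a subunit of the mitochondrial pyruvate carrier listed in the files as Brp44l, differed by 0.51 ± 0.15, Pdp2 by -0.26 ± 0.09 and Pdhb by 0.32 ± 0.12, with adjusted p values of 0.0784, 0.127 and 0.153 by edgeR's quasi-likelihood test. Mpc1 was called higher with the title number as a block (adjusted p 0.0436, edgeR's quasi-likelihood test), but not with GC and length offsets (0.136, same test). Of 8 pentose phosphate genes 1 fell, G6pdx, with a median of 0.21. H6pd differed by -0.61 ± 0.20, Taldo1 by 0.25 ± 0.13 and Rpe by 0.33 ± 0.18, with adjusted p values of 0.114, 0.297 and 0.325 by edgeR's quasi-likelihood test. H6pd was called lower with the title number as a block (adjusted p 0.0319, edgeR's quasi-likelihood test), where 8.94% of all genes were called. It was -0.84 within title number 1 and -0.10 within title number 2. With GC and length offsets it was not called (adjusted p 0.0972, same test).

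**Figure D4:**
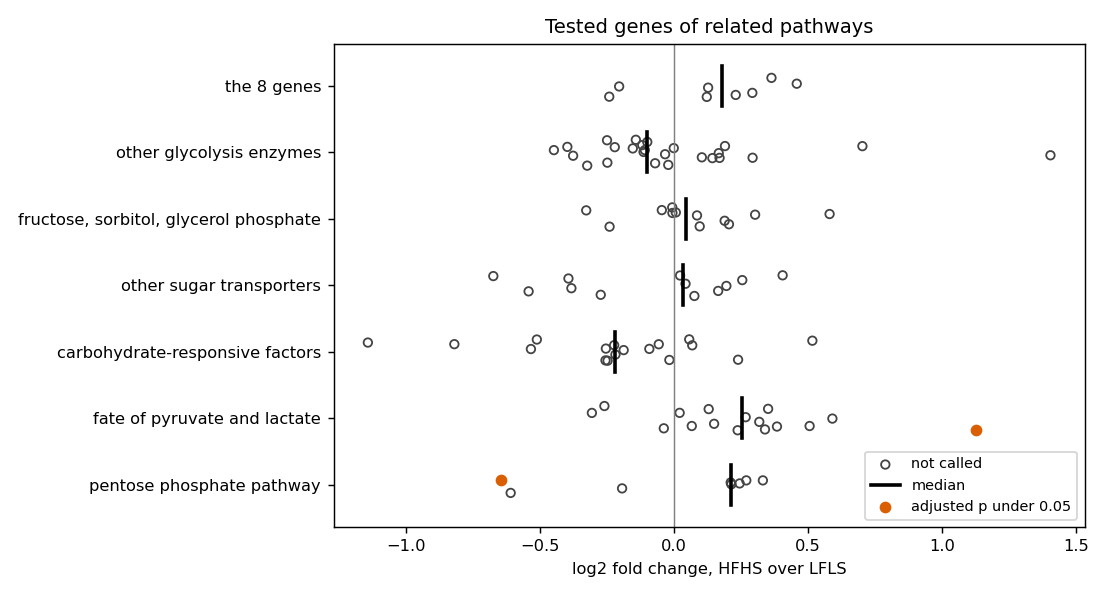
Log2 fold change, HFHS over LFLS, of the tested genes in each list, with 1 point per gene, filled where the adjusted p was under 0.05 and a black bar at the median of the list. Slc16a7 at 1.13 and G6pdx at -0.64 are the filled points, and Hk2 at 1.41 lies farthest right without a call.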

How the data were processed

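Liver RNA of 14 mice was sequenced as single reads from TruSeq polyadenylated libraries, per the labels' protocols. The submitters' processing notes name CASAVA 1.8, Bowtie, TopHat and DESeq and the build mm9, with no counting tool. The deposited counts were whole numbers with a minimum of 1 in every library, and 11120 genes stood at 1 in all of them.

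The authors' deposited results table gave DESeq signal values (means of scaled counts), a fold ratio, its log2 and p-values, per the file headers. It served for gene names. Its log2 ratio was read as HFHS over LFLS because it lay a median of 0.00253 from the recomputed log2 ratio in that direction, against 0.403 in the other. In the authors' deposited table the adjusted p was 1.0 for each of the 8 genes and log2 ratios ran from -0.37 (Slc2a5) to 0.35 (Slc2a2).

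The test was that of edgeR 4.0.16 in R 4.3.3 (TMM, default expression filter by diet, quasi-likelihood F test, no covariates), with calls at an adjusted p under 0.05. The SE is the log2 fold change divided by the square root of F. Log2 CPM used a prior count of 2. The scripts were tested on simulated data. Alternatives used DESeq2 1.42.0, limma 3.58.1, other scalings, filters, blocks and samples. GC and length offsets, from a loess per library with a span of 0.5, were chosen after seeing the data. Their length was that of all annotated exons of a gene. GC content, lengths and overlaps came from GENCODE vM21 (GRCm38), another build than that of the counts.

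The 8 genes and the lists were chosen with earlier results of these data known. Named besides them are every called list gene, the 3 with the smallest p in each list, and the 3 tested genes most correlated with each of the 8. A gene that this rule names among the other glycolysis enzymes is not reported here. The marker genes of intestine and islet were picked from fixed lists because Slc2a2 and Slc2a5 are used in those tissues. Each library came from a separate liver, and p-values measure the spread between these libraries. In the main test this spread holds differences between title numbers as well as between mice.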

Additional observations from a re-analysis of the deposited data

How the results depend on the processing

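Gckr, Khk, Pklr, Slc2a2 and Sord kept a positive log2 fold change under all 27 alternatives, with adjusted p values from 0.00231 (Slc2a2) to 0.887 (Gckr). Single libraries left out gave log2 fold changes of 0.10 to 0.18 for Gckr, 0.23 to 0.46 for Khk, 0.28 to 0.46 for Pklr, 0.40 to 0.58 for Slc2a2, -0.40 to -0.03 for Slc2a5, 0.03 to 0.27 for Pfkfb1, -0.28 to 0.05 for Pfkl and 0.17 to 0.30 for Sord. Slc2a2 was called with DESeq2 (0.46), with limma voom (0.65), when LFLS 1 or LFLS 6 was left out, and with the title number as a block (0.46, adjusted p 0.0494 by edgeR quasi-likelihood). Sord was called with limma voom (0.43) and Khk with offsets and the title block (0.44, adjusted p 0.0422 by edgeR quasi-likelihood). Signs turned in title number 2 alone for Slc2a5 (0.0029), Pfkfb1 (-0.031) and Pfkl (0.26), and for Pfkl without LFLS 1 (0.049), with offsets (0.0039) and with offsets and the title block (0.0036). The causes were not tested.

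Of the 8 genes 1 was called higher with DESeq2, where 7.3% of all genes were called, and 2 with limma voom, where 19% were. With the title block 1 was called higher, where 8.94% of all genes were called. With offsets and the title block 1 was called higher, where 7.49% were. Without single libraries 0 to 1 were called higher, and 0 were called lower under every alternative. Libraries with the same title number and letters correlated from -0.07 to 0.41 in their deviations, and 3 of 7 HFHS libraries matched their own partner best. Libraries of different diets correlated at a mean of 0.13 within the same title number and -0.13 across numbers. Whether the titles mark pairs was not tested. The labels do not explain the titles, and the main test did not take them as pairs. With title pairs as a replicate block Slc2a2 stood at 0.49 with an adjusted p of 0.0520 by edgeR quasi-likelihood, and 328 genes were called higher and 270 lower.

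Over all genes 236 were called higher and 248 lower. The counts were 543 and 715 with DESeq2, 1716 and 1558 with limma voom, 379 and 152 with library totals alone, 87 and 86 without a filter, 755 and 785 with the title number as a block, 926 and 558 in title number 1 alone, 134 and 135 in title number 2 alone, 319 and 407 with offsets, and 592 and 698 with offsets and the title block. Without single libraries they ran from 79 to 414 and from 54 to 439. The total of 484 became 248, 133, 176, 199 and 252 when HFHS 1, 2, 5, 6 or 7 was left out, and 263, 316, 262, 853 and 275 when LFLS 2, 3, 4, 6 or 7 was left out.

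Calls in the lists moved as follows. Other glycolysis enzymes had 1 call with DESeq2, 3 with limma voom, 1 with either block, 2 in title number 2 alone and 2 with offsets, with or without the title block. Fructose, sorbitol and glycerol phosphate handling had 1 with DESeq2, 2 with limma voom and 1 in title number 2 alone. Other sugar transporters had 1 with DESeq2, 3 with limma voom, 1 with the title block, 1 in title number 1 alone and 1 with offsets, with or without the title block. Carbohydrate-responsive factors had 2 with DESeq2, 1 with limma voom, 1 with the stricter filter of 1 CPM in 7 libraries, 2 with the title block, 1 with title pairs as a block, 2 in title number 1 alone, 1 in title number 2 alone and 2 with offsets and the title block. Pyruvate and lactate genes had 2 with DESeq2, 10 with limma voom, 2 with library totals alone, 0 without a filter, 2 with either block, 3 in title number 1 alone and 0 in title number 2 alone. Pentose phosphate genes had 2 with DESeq2, 3 with limma voom, 0 without a filter, 2 with the title block, 2 in title number 1 alone and 0 in title number 2 alone. Single libraries left out gave 0 calls in the first 3 lists, 0 to 1 in the carbohydrate-responsive factors and 0 to 2 in the last 2.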
